A study of Homo sapiens with 2 samples.

Results

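The region examined is the stretch of chromosome 8, band 8q24, from 126 to 130.5 Mb, which holds the oncogene MYC and the long-range landscape on both of its sides. Its members were all ATAC-seq peaks of 2 human cell lines with any base inside these limits, 60 of 58730 peaks in the J76 list and 119 of 84951 in the 293T list (autosomes and chromosome X), 179 of 143681 in all. ATAC-seq marks open chromatin, where a transposase, here one purified in the submitters' laboratory, can cut DNA and attach sequencing adapters. J76 is a T cell leukemia line, a Jurkat subline without a T cell receptor, and 293T is an embryonic kidney line; 50000 cells entered each reaction, per the labels' protocols. Each line had 1 library and 1 peak list, so differences between J76 and 293T lack a replicate check, and none was tested. The lists hold no read counts, the depth is unknown, and a missing peak does not show a closed site.

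MYC encodes a transcription factor that pairs with MAX on E-box DNA and drives genes of ribosome production, metabolism and cell division. It lies almost alone in a gene desert, and much of its control comes from enhancers far from the gene that differ between tissues. In T cell leukemia an enhancer bound by NOTCH1 far downstream of MYC is known to drive it, blood progenitors and myeloid leukemia use an enhancer cluster further downstream around the long non-coding RNA gene CCDC26, and epithelial cancers use elements in the desert upstream. PVT1, the long non-coding RNA gene next downstream, carries enhancers within its body, and its promoter can compete with that of MYC. The files do not mark these elements, and no peak was matched to them here.

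Every position is given on GRCh38, counted from 1. MYC spans 127735434 to 127742951 and is transcribed toward higher coordinates, so 127735434 was taken as its start and distances are from there to a peak's summit, the base the peak caller placed at the peak's highest point. The fold of a peak is the enrichment over background that the authors' caller gave its summit, and q is the authors' adjusted p-value, given as −log10. Folds rank peaks within a list; lists called separately are not on a single scale, so a fold in J76 and a fold in 293T are set side by side and not compared. Peaks of J76 and 293T that had 1 bp or more in common are called shared. Labels were checked by peaks within 1 kb of the start of marker genes. Of 10 T cell markers, 9 had such a peak in J76 only and 1, CD2, in neither line. Of 8 kidney development markers, 5 had one in 293T only, SIX2 in both lines, and PAX2 and PAX8 in neither. The 4 B cell markers had none in either line, and the 4 myeloid and 4 hepatocyte markers had 1 each in both lines (SPI1 and APOA1) and 1 each in a single line (CSF1R in 293T and TTR in J76).

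The region held fewer peaks per Mb than each list as a whole in both lines, but more peaks than the median tile of like gene number. J76 had 13.3 peaks per Mb in the region, against 18.5 over chromosome 8 and 19.4 over autosomes and chromosome X. In 293T there were 26.4 per Mb in the region, against 24.03 over chromosome 8 and 28.0 over autosomes and chromosome X. J76 peaks made up 33.5% of the peaks of both lists in the region (95% Wilson interval 27.0 to 40.7), 43.5% on chromosome 8 and 40.9% over autosomes and chromosome X; the intervals of shares cover counting error only. Among 645 genome tiles of the same length, the median ratio of J76 to 293T peaks was 0.68 (quartiles 0.47 and 0.95), and 29.9% had a ratio at or below the 0.50 of the region. Among the 86 tiles with 3 to 9 protein-coding genes, around the 6 of the region, the median ratio was 0.47. Of these tiles, 53.5% had a ratio at or below that of the region. Their median counts were 44 J76 and 98 293T peaks, below the 60 and 119 of the region. The J76 count was at or below 60 in 69.8% of them, and the 293T count at or below 119 in 67.4%. With the same number of peaks taken from each list, by highest −log10 q, the J76 share was 44.4% in the region, against 50% over autosomes and chromosome X by construction.

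Sharing in 293T was lower than over its whole list. Of the 60 J76 peaks, 29 were shared, 48.3% (36.2 to 60.7), against 52.3% of the whole J76 list. Of the 119 293T peaks, 28 were shared, 23.5% (16.8 to 31.9), against 36.0% of the whole 293T list. The other 31 J76 peaks were found in J76 only (51.7%, whole list 47.7%), and 91 293T peaks in 293T only (76.5%, whole list 64.0%). The shared peaks formed 30 overlapping pairs, and the summits lay within 50 bp of each other in 24 pairs. Within J76, shared peaks had a median fold of 5.15 and J76-only peaks 4.42; within 293T, shared peaks had 5.21 and 293T-only peaks 3.64. The median fold of all region peaks was 4.73 in J76 (whole list 4.83) and 3.96 in 293T (whole list 4.38).

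**Figure D1:**
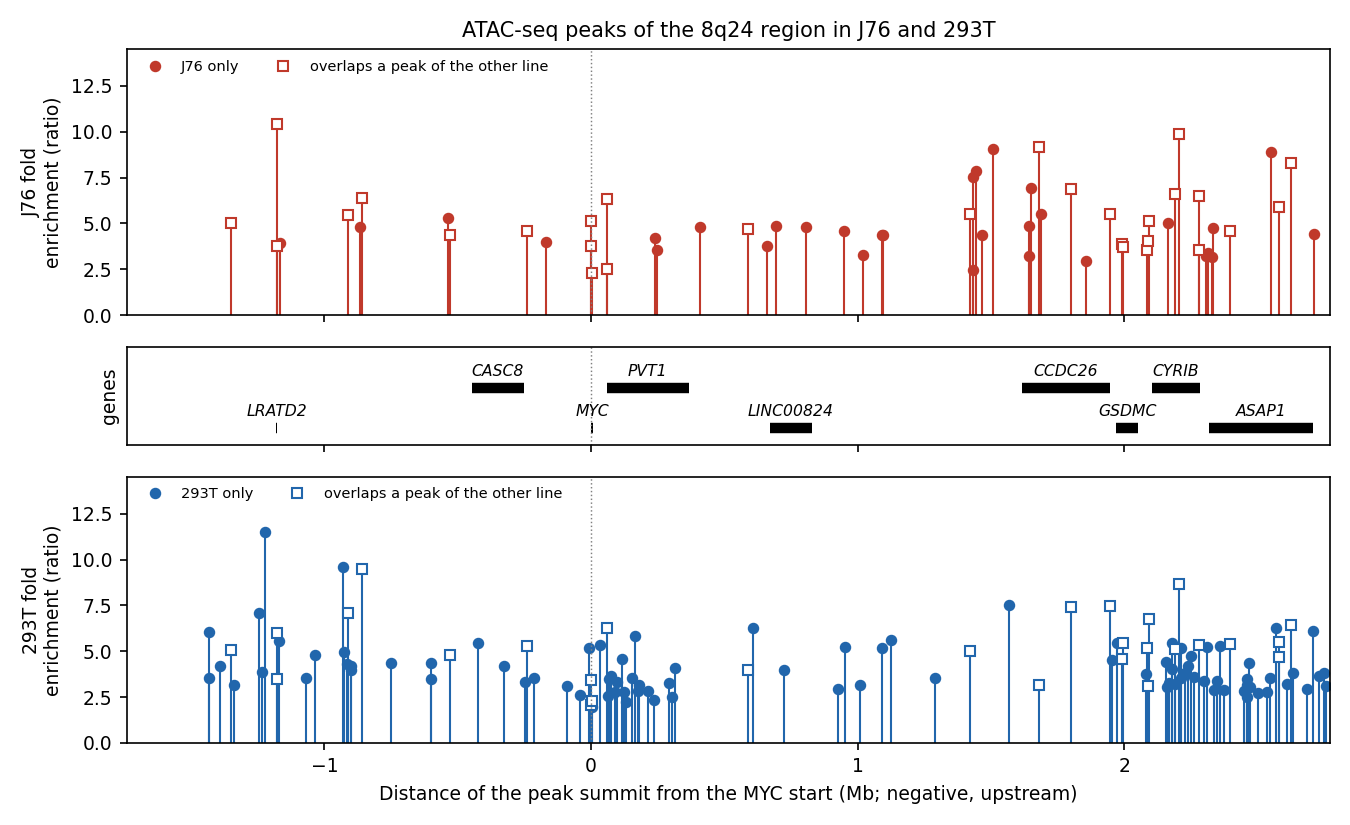
Peaks of the 8q24 region by distance of the summit from the MYC start (x axis, Mb), with the authors' fold enrichment on the y axis, J76 in the upper panel and 293T in the lower; filled circles are peaks of that line only, open squares peaks that overlap one of the other line, and bars in the middle are genes. J76 peaks gather between 1.42 and 1.69 Mb downstream, where 293T has 3 peaks, and 293T peaks gather in PVT1, CYRIB and ASAP1.

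By distance, peaks of both lines lay mostly downstream of MYC. J76 had 13 peaks upstream, over 1.74 Mb, and 47 downstream, over 2.76 Mb. In 293T there were 33 upstream and 86 downstream. Within 50 kb upstream of the start J76 had 2 peaks, both shared, and 293T had 3, of which 1 was shared. Within 50 kb downstream J76 had 1 peak, also shared, and 293T had 4, of which 2 were shared. Summits set the side, so the overlapping peaks at the MYC start count as upstream in J76 and as downstream in 293T. From 50 to 250 kb downstream there were 4 J76 peaks (2 in J76 only) and 15 293T peaks (14 in 293T only). Between 250 and 500 kb upstream J76 had 0 peaks and 293T had 2. From 500 to 1000 kb downstream each line had 5 peaks, 4 of them unshared. Beyond 1000 kb downstream lay 36 J76 peaks, 20 of them in J76 only, and 59 293T peaks, 43 of them in 293T only. This far downstream class is also the longest stretch of sequence.

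**Figure D2:**
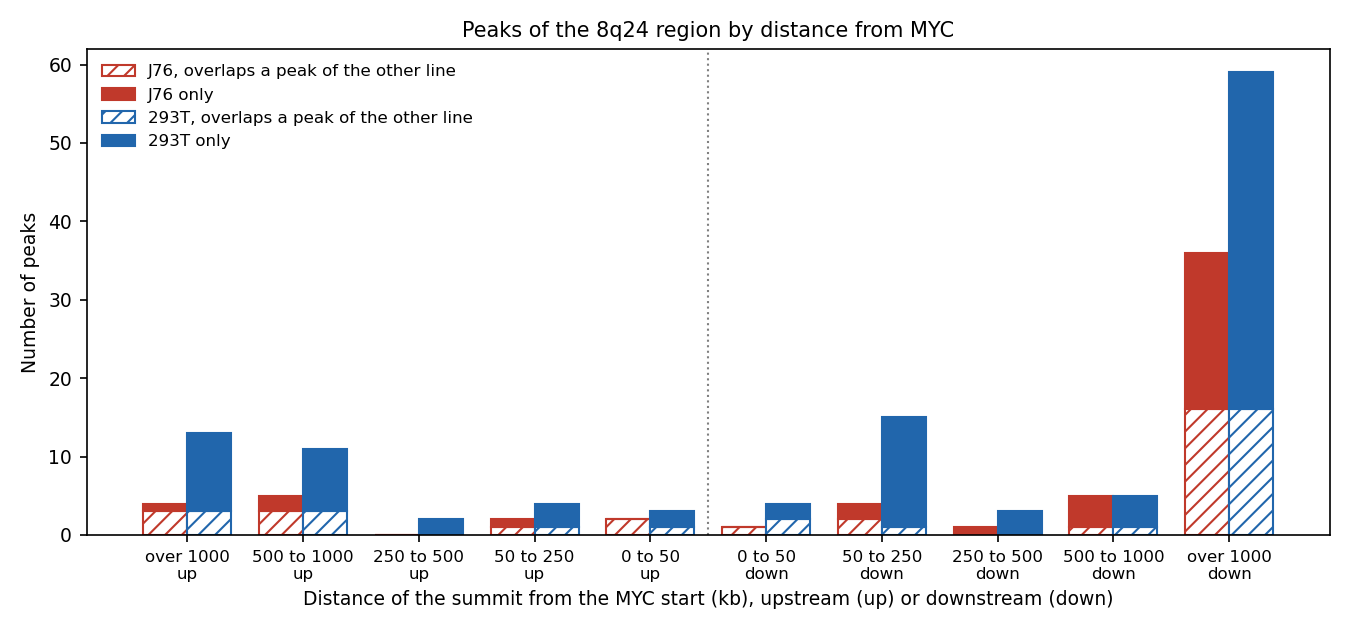
Number of peaks (y axis) in each class of distance from the MYC start (x axis, kb, upstream to the left), with J76 bars left of 293T bars; hatched parts overlap a peak of the other line and solid parts do not. The downstream class from 50 to 250 kb holds 4 J76 and 15 293T peaks.

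At MYC itself both lines had a peak over the start. In J76 the peak ran from 127735003 to 127736488 (1486 bp) with a fold of 5.15 and a −log10 q of 61.1, and in 293T from 127735098 to 127736608 (1511 bp) with a fold of 3.41 and a −log10 q of 40.7. The summits inside these overlapping peaks differed in place: the J76 summit lay 107 bp upstream of the start, and the 293T summit 771 bp downstream of it, 878 bp apart. Another pair stood between MYC and CASC11, a long non-coding RNA gene just upstream, from 127734057 to 127734416 in J76 (fold 3.78) and from 127734079 to 127734309 in 293T (2.09), with summits 2 bp apart. The remaining pair lay inside the gene, from 127737711 to 127737938 in J76 (2.28) and from 127737645 to 127738807 in 293T (2.29). The J76 list held no further peak within 50 kb of MYC.

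In 293T there were 4 more peaks within 50 kb of MYC, none of them shared. The peak from 127725755 to 127726243 inside CASC11 had a fold of 5.15 and a −log10 q of 10.9. A peak between MYC and PVT1, from 127766887 to 127767274, had a fold of 5.33 and a −log10 q of 12.4. The other peaks were weak, from 127736975 to 127737225 within MYC (fold 1.95) and from 127692393 to 127692668 upstream (2.59, −log10 q 2.25). Of the 5 293T peaks from CASC11 to the end of MYC, 4 stood at least 40 percentile points lower in their list by fold than by −log10 q, as did 2.10% of the 293T list; of the 3 J76 peaks 1 did, against 1.68% of the J76 list. This contrast was chosen after the values were seen, and counts by its cut do not compare the lines. The J76 peak from 127737711 to 127737938 just missed the cut, at percentile 0.649 by fold and 40.5 by −log10 q. The J76 peak over the MYC start stood at percentiles 55 and 88.

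PVT1 (127794524 to 128101256, 307 kb) overlapped 4 J76 and 18 293T peaks. A peak over its start was found in both lines, from 127794189 to 127794948 in J76 (fold 6.36, −log10 q 27.2) and from 127793960 to 127795819 in 293T (6.29, 55.0). The 293T peak was wide enough to cover also a weak J76 peak from 127795128 to 127795336 (2.52). Beyond the start, J76 had 2 peaks in the gene, from 127975535 to 127976027 (4.22) and from 127981225 to 127981433 (3.57). In 293T there were 17 further peaks, all in 293T only, with folds from 2.24 to 5.82. An unbroken stretch of 14 of them ran from 127800292 to 127970422, 170 kb, with no J76 peak between them and a median fold of 3.00. The highest were from 127898399 to 127899707 (5.82, −log10 q 23.9) and from 127851487 to 127852485 (4.55, 14.7).

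Stretches of 14 or more peaks made up 1.27% of the 21475 293T-only stretches of the genome. This is a share of stretches, not of peaks. PVT1 did not stand alone in the region. A 293T-only stretch of 12 peaks ran from 130463018 to 130651355, across the upper limit (share as long 1.84%). Another, of 9 peaks, lay in ASAP1 (3.69%). The stretch across the limit kept 8 peaks with −log10 q 5 as the floor, and the PVT1 stretch 6. Lists of equal length left 7 and 6. Most of the PVT1 peaks were weak, and the median 293T peak of this segment stood at percentile 17.9 of its list by fold. With −log10 q 5 as the floor, 2 J76 and 8 293T peaks overlapped PVT1, and at 10, 1 and 3. Of the 300 kb tiles of the genome, 2.92% held 17 or more 293T-only peaks. None of the 5 microRNA genes in and just beyond PVT1 (MIR1204 to MIR1208) overlapped a J76 peak, and in 293T only MIR1207 did, by 7 bp, under a peak of fold 4.07.

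**Figure D3:**
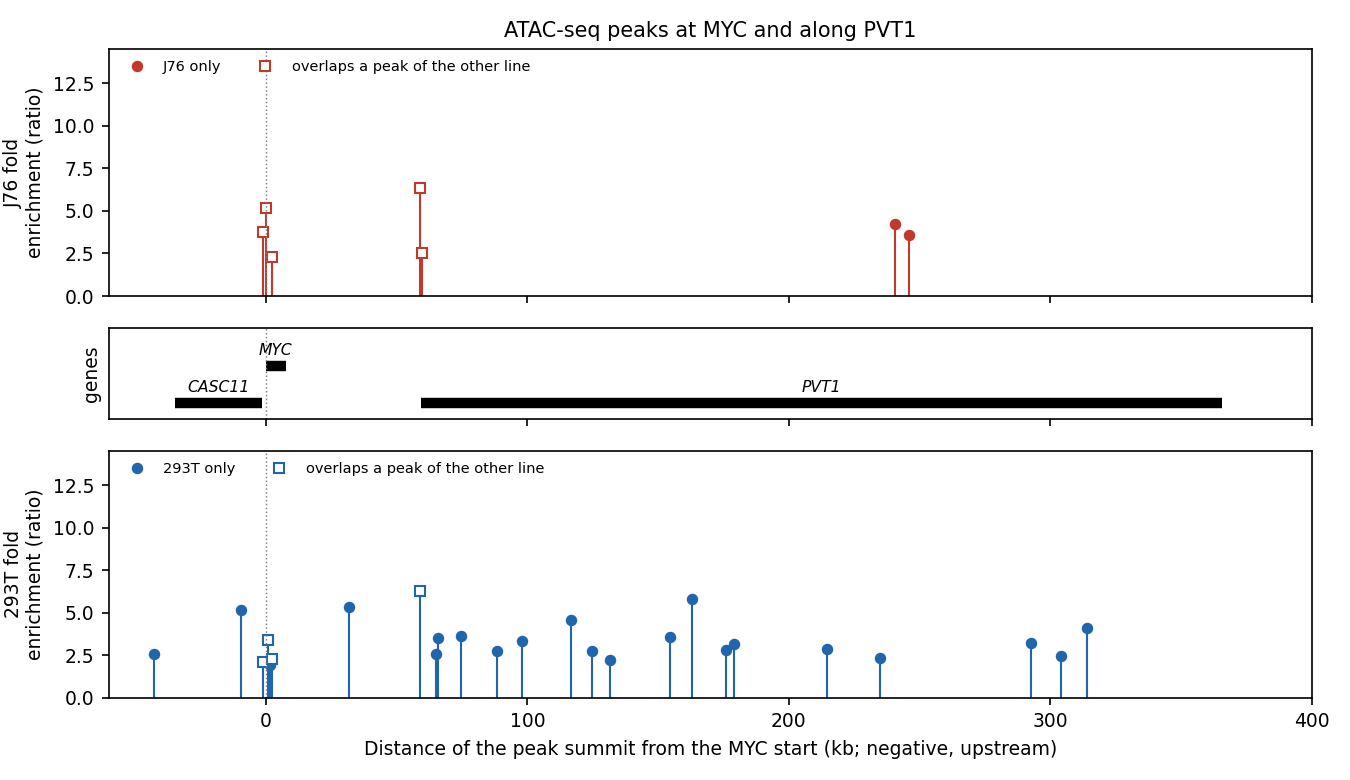
Peaks at MYC and along PVT1 by distance of the summit from the MYC start (x axis, kb) with the authors' fold enrichment (y axis), J76 above and 293T below; filled circles are peaks of that line only, open squares overlap a peak of the other line, bars are genes. Beyond the PVT1 start J76 has 2 peaks in the gene and 293T has 17.

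Between PVT1 and a point 1.4 Mb downstream, a desert with the long non-coding RNA gene LINC00824, each line had 9 peaks, of which 1 pair was shared, from 128322692 to 128323000 in J76 (4.69) and from 128322725 to 128322982 in 293T (3.96). J76 folds reached 4.88 there, at a peak inside LINC00824 from 128428135 to 128428683. The highest 293T fold was 6.26, from 128343916 to 128344343. At 1.09 Mb a 293T peak from 128826563 to 128827307 (5.15) lay between 2 J76 peaks, from 128825587 to 128825954 (4.38) and from 128828573 to 128829143 (4.38), without touching either, so all 3 count as unshared although they stand close together. The longest interval between neighbouring J76 peaks of the region followed, 328 kb from 128829144 to 129157488, and 2 293T peaks lay wholly inside it.

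From 1.4 to 1.7 Mb downstream the balance turned to J76. J76 had 11 peaks in these 300 kb, 9 of them in J76 only, and 293T had 3, of which 1 was in 293T only. This was the segment with the largest excess of J76 over 293T peaks; its limits were set after the peaks were seen. Of the 300 kb tiles of the genome, 4.69% held 9 or more J76-only peaks. The peaks fell into a nearer and a farther group.

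The nearer group, 1.42 to 1.51 Mb from MYC, opened with a shared peak, from 129157489 to 129157795 in J76 (5.49) and from 129157482 to 129157750 in 293T (5.01). Then came 5 J76-only peaks over 75.1 kb, from 129166435 to 129241560, with no 293T peak between them; 3.28% of the 17245 J76-only stretches of the genome held 5 or more peaks. They had folds of 2.45, 7.52, 7.88, 4.39 and 9.08 in order of distance. The strongest by significance ran from 129167763 to 129168792 (1030 bp) with a −log10 q of 48.1, the highest of any unshared J76 peak of the region. The peak of highest fold, from 129241127 to 129241560 (−log10 q 32.5), lay at the far ends of the long non-coding RNA genes LINC00977 and LOC124902022. Another strong peak ran from 129179631 to 129180268 (7.88, −log10 q 23.04). The nearest 293T peak beyond the group was from 129303413 to 129304059 (7.51, −log10 q 19.8), in an interval where J76 had none.

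The farther group, 1.64 to 1.69 Mb from MYC, lay inside CCDC26 (129351694 to 129680239). J76 had 3 unshared peaks in 8.85 kb from 129377949 to 129386797, with folds of 3.24, 4.87 and 6.94, the last, from 129386224, with a −log10 q of 30.3. They were followed by a 1020 bp peak from 129415211 to 129416230 with a fold of 9.19 and a −log10 q of 45.2 in J76, which overlapped a weak 293T peak from 129415666 to 129416022 with a fold of 3.13 and a −log10 q of 2.99. A last J76-only peak ran from 129422619 to 129423172 (5.49). Over the whole of CCDC26 there were 7 J76 peaks, 5 in J76 only, and 2 293T peaks, both shared. The other shared peak, 1.80 Mb from MYC, ran from 129535614 to 129536126 in J76 (6.88) and from 129535735 to 129536102 in 293T (7.39). At a −log10 q of at least 10 an unbroken J76-only stretch of 4 peaks stood in each group, from 129157489 to 129241560 and from 129378388 to 129423172; the shared peaks at 129157489 and 129415211 then count as J76-only, since their 293T partners had a −log10 q of 9.20 and 2.99.

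**Figure D4:**
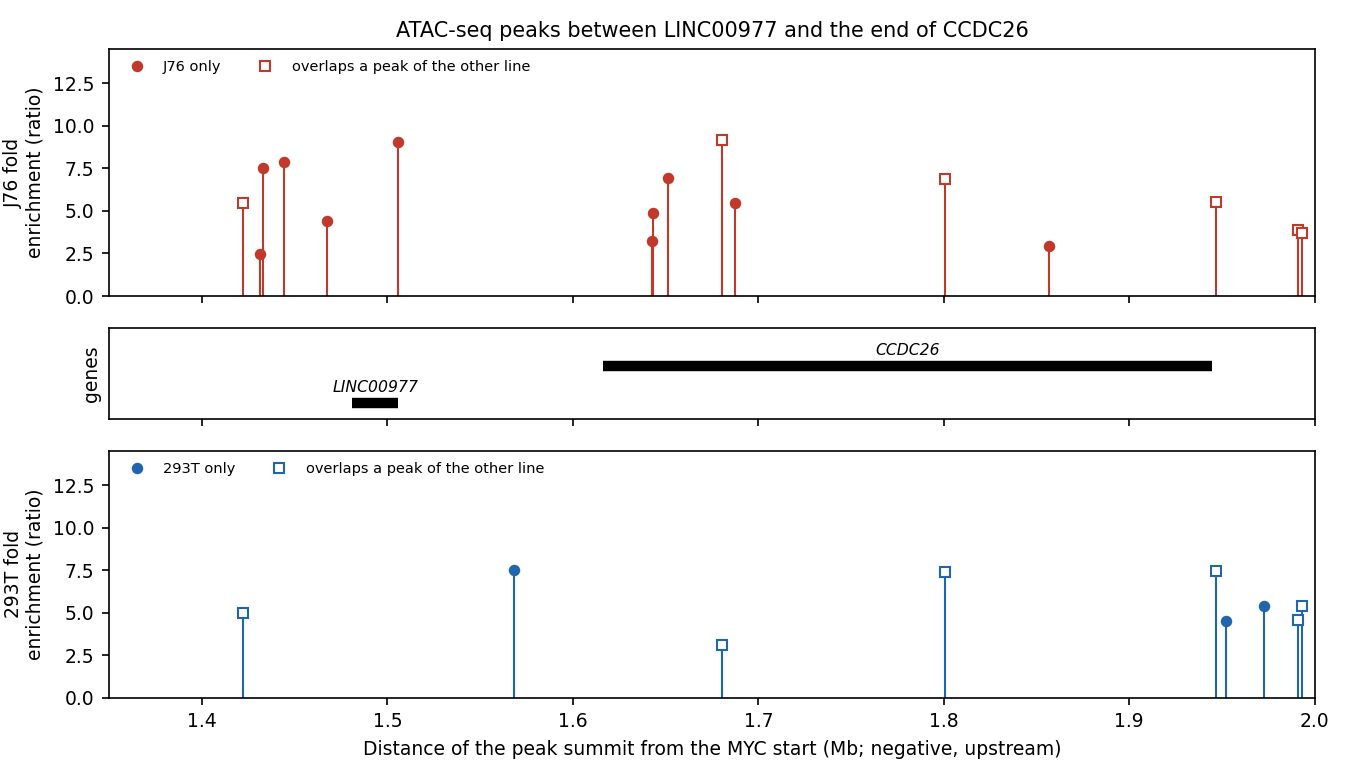
Peaks from 1.35 to 2.0 Mb downstream of the MYC start (x axis, Mb) with the authors' fold enrichment (y axis), J76 above and 293T below; filled circles are peaks of that line only, open squares overlap a peak of the other line, bars are genes. J76 has 5 unshared peaks from 1.43 to 1.51 Mb and 4 from 1.64 to 1.69 Mb, and 293T has 1 unshared peak in these 300 kb.

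Past 1.7 Mb the lines shared most of their peaks up to CYRIB. J76 had 8 peaks in these 404 kb, 7 of them shared, and 293T had 10, also with 7 shared. They included a pair just beyond the end of CCDC26 (from 129681997 to 129682374 in J76, 5.52, and from 129681998 to 129682398 in 293T, 7.47) and 2 pairs inside GSDMC, a member of the pore-forming gasdermin family (from 129726336 to 129726535, 3.88, and from 129728582 to 129728829, 3.70, in J76; from 129726315 to 129726556, 4.56, and from 129728574 to 129728886, 5.42, in 293T). Neither line had a peak within 1 kb of the ends of GSDMC.

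CYRIB, whose product binds the GTPase RAC1 and restrains actin branching, held the most significant peak of the region in both lines, from 129939131 to 129940453 in J76 (fold 9.86, −log10 q 104) and from 129939008 to 129940479 in 293T (8.68, −log10 q 101). A pair at its far end from MYC, from 130015620 to 130016879 in J76 (6.51) and from 130015291 to 130017079 in 293T (5.34), was shared as well. Along the gene J76 had 5 peaks, 1 of them in J76 only, and 293T had 15, 12 of them in 293T only. One of the unshared 293T peaks, from 129912944 to 129913358, had a fold of 5.43.

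ASAP1, an ARF GTPase activating protein of focal adhesions and podosomes, overlapped 6 J76 peaks, 3 of them unshared, and 22 293T peaks, 18 of them unshared. Both lines had a strong peak within the gene, from 130357918 to 130359161 in J76 (8.31, −log10 q 67.3) and from 130357274 to 130359145 in 293T (6.43, 54.8). The strongest J76-only peak ran from 130284464 to 130285029 (8.91, −log10 q 27.1), followed by a weaker one from 130068267 to 130068576 (4.76). The most significant 293T-only peak of the whole region lay at the far end of ASAP1 from MYC, from 130442793 to 130444286 (6.12, −log10 q 44.1), and a J76 peak from 130444614 to 130445503 (4.42) stood just beyond it without overlap. Others in 293T only were from 130302444 to 130302884 (6.24) and, between CYRIB and ASAP1, from 130045626 to 130046346 (5.21). As in PVT1, most unshared 293T peaks of ASAP1 were weak, and with −log10 q 10 as the floor the gene overlapped 7 293T peaks and CYRIB also 7.

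Upstream of MYC the desert held few J76 peaks. From LRATD2, the nearest protein-coding gene apart from POU5F1B, to CASC11 (1140 kb) J76 had 8 peaks, 4 of them in J76 only, and 293T had 21, 17 of them in 293T only. POU5F1B, a retrogene copy of the pluripotency factor POU5F1 that lies 0.32 Mb upstream, had no peak in or within 1 kb of it in either line. J76 had no peak for 320 kb from 126876998 to 127196830 and for 289 kb from 127207299 to 127496485, and 3 293T peaks lay wholly inside each interval. The strongest unshared J76 peak upstream was at the end nearest to MYC of the long non-coding RNA gene CASC19, from 127196831 to 127197122 (5.27, −log10 q 9.65). Next to it, at an end of CCAT1, a long non-coding RNA known from colon cancer, both lines had a peak, from 127207070 to 127207298 in J76 (4.39) and from 127207037 to 127207289 in 293T (4.80).

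The 293T peaks between LRATD2 and CASC11 had a median fold of 4.38, and those of the PVT1 segment 3.20. The highest fold of any 293T peak of the region, 11.5 (−log10 q 43.8), was from 126510306 to 126510923, 1.22 Mb upstream, with a neighbour from 126488151 to 126488519 (7.09). A run of 6 293T peaks from 126804988 to 126834332, 0.93 to 0.90 Mb upstream, included one of fold 9.62 from 126804988 to 126805706 (−log10 q 38.03), and its single shared member overlapped a J76 peak from 126824345 to 126824774 (5.46). LRATD2 had a shared peak at its end nearest to MYC, from 126557952 to 126558738 in J76 (10.4, the highest J76 fold of the region, −log10 q 96.5) and from 126557623 to 126558754 in 293T (5.98, −log10 q 74.6). Just past it 293T had an unshared peak from 126564132 to 126564948 (5.54) and J76 one from 126567024 to 126567224 (3.95). At the limits of the region, the last J76 peak inside ran from 130444614 to 130445503, and the nearest outside below were a J76-only peak from 125971919 to 125972576 (8.78) and a 293T-only peak from 125828790 to 125829073 (3.76). At the upper limit 293T peaks continued across it, from 130491589 to 130491843 (3.11) inside and from 130503151 to 130503385 (3.51) outside.

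**Figure D5:**
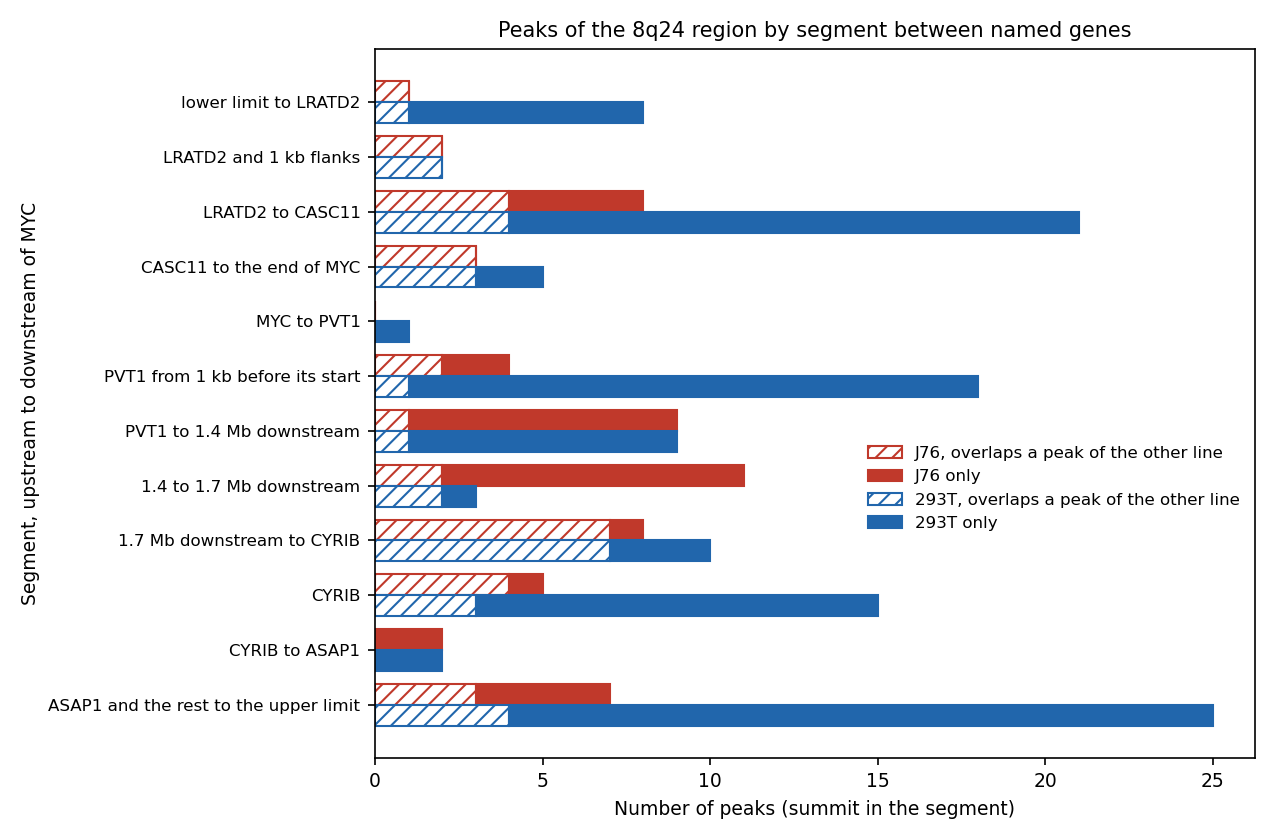
Number of peaks (x axis) in each of 12 segments between named genes (y axis, upstream at the top), with J76 bars above 293T bars; hatched parts overlap a peak of the other line and solid parts do not. The segment from 1.4 to 1.7 Mb downstream has 11 J76 and 3 293T peaks, and the PVT1 segment 4 and 18.

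Dense runs, 3 or more peaks of a line with gaps of at most 12500 bp, were fewer in J76. J76 had 5 runs with 16 of its 60 peaks (26.7%, whole list 30.6%), and 293T had 16 runs with 62 of its 119 peaks (52.1%, whole list 38.9%). The last 293T run crosses the upper limit of the region and is counted with its 2 peaks inside, from 130483015 to 130491843. The J76 runs lay at LRATD2, at MYC, at 1.42 to 1.44 Mb (4 peaks), in CCDC26 (3 peaks, none overlapping a 293T peak) and upstream of CYRIB. The largest 293T runs were 7 peaks in CYRIB from 129891687 to 129925262, 6 in ASAP1 from 130184521 to 130207889, 6 at 0.93 Mb upstream and 5 from CASC11 into MYC. By 100 kb bins from the MYC start, J76 had more peaks in 10 of 46 bins and 293T in 28. The fullest J76 bins held 5 peaks each, at 1.4 to 1.5, 1.6 to 1.7 and 2.3 to 2.4 Mb. The fullest 293T bins held 10 peaks from MYC to 0.1 Mb downstream and 9 at 2.2 to 2.3 Mb, with 7 in each of 3 others.

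By annotation, peaks of the region stood in long non-coding RNA genes more often than peaks at large. Summits in such genes, outside protein-coding genes, made up 30.0% of J76 peaks (19.9 to 42.5, whole list 10.6%) and 29.4% of 293T peaks (22.0 to 38.1, whole list 11.5%). Such genes are also long in the region, among them LOC105375751 (463 kb), CCDC26 (329 kb) and PVT1 (307 kb). The share of bases they cover was not computed, so these values show no preference of peaks for them. Of the 6 protein-coding genes of the region, 5 overlapped a peak in J76 and 5 in 293T, and POU5F1B was without one in both lines. Of 30 long non-coding RNA genes, 9 overlapped a peak in J76 and 11 in 293T. Shares over all genes of these types were not computed. Gene lengths differ widely, and a peak in overlapping genes, such as LINC00977 and LOC124902022, counts for each.

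The loci of the paralogs MYCN and MYCL were set beside MYC over windows of the same span on either side of their starts. Around MYCN on chromosome 2, in a window with 14 protein-coding genes, there were 69 J76 and 133 293T peaks, a ratio of 0.52 against 0.50 at MYC. J76-only peaks numbered 39 around MYCN and 31 at MYC, and 293T-only peaks 102 and 91. Around MYCN 43.5% of J76 and 23.3% of 293T peaks were shared, against 48.3% and 23.5% at MYC. Over 1000 kb downstream of MYCN, 5 of 14 J76 peaks were in J76 only, against 20 of 36 downstream of MYC (whole list 47.7%). Of the 293T peaks there, 41 of 50 and 43 of 59 were in 293T only (whole list 64.0%). Around MYCL on chromosome 1, in a window with 58 protein-coding genes, there were 116 J76 and 130 293T peaks. Over 1000 kb downstream of MYCL, 10 of 33 J76 peaks and 13 of 36 293T peaks were unshared. Shared peaks made up 62.9% of the J76 and 58.5% of the 293T peaks around MYCL. Both lines had a peak at the MYCN start (fold 5.29 in J76 and 4.82 in 293T) and at the MYCL start (8.53 in J76 and 7.42 in 293T). These counts were not tested.

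Genes that work with MYC mostly had a peak within 1 kb of their start in both lines, as did 59.2% of 19974 protein-coding genes, while 3.71% had a start peak just in J76, 8.82% just in 293T and 28.2% lacked one in both. Of 13 genes of the MYC network, 11 had a peak in both lines and 2 in 293T only. Among the shared ones were MAX, the obligate partner (7.36 in J76 and 8.46 in 293T), the antagonists MXD1 (10.4 and 8.77) and MXD4 (8.32 and 9.52), and MGA (7.80 and 10.7). Those in 293T only were MXI1, another antagonist (3.14), and MLXIPL, the glucose-responsive factor ChREBP (8.29).

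All 12 regulators of the MYC protein had a peak in both lines, among them MYCBP (11.6 in J76 and 12.2 in 293T), SKP2 (10.6 and 9.96) and USP36 (9.76 and 9.16). FBXW7, the ubiquitin ligase that marks MYC for degradation, had folds of 7.67 in J76 and 6.97 in 293T. Of 12 factors known at long-range MYC enhancers, 9 had a peak in both lines, among them CTNNB1 (8.38 and 4.99), TCF7 (7.92 and 8.97), TCF7L2 (7.81 and 4.98) and CTCF (7.33 and 7.70), and NOTCH1 (6.50 and 4.97). TAL1, a T cell leukemia oncogene, had one in J76 only (3.48), and RBPJ and GATA3 had none at the listed start in either line.

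All 20 MYC target genes had a peak in both lines. The highest J76 folds were at BOP1 (11.3 in J76 and 9.48 in 293T), PRMT5 (11.2 and 7.93), FBL (10.8 and 9.09) and NME1 (10.2 and 9.87), and the highest 293T fold was at SRM (8.72 in J76 and 10.2 in 293T).

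The E-box CACGTG, which reads the same on both strands, was searched in the 250 bases before the start of the 17 target genes whose promoters were at hand (RefSeq, GRCh38.p14), and 7 held it (41.2%), against 7.83% of 15813 protein-coding promoters. Of 12 promoters of MYC network genes, 3 held it (25%). The target genes were listed because they are known as MYC targets, so their share is not independent of that choice. The difference was not tested. A match is a description of the letters and no evidence of binding. To show the motif that MYC is known to read, the 3 target promoters with more than 1 match are printed on the gene's strand, 5′ to 3′, with E-boxes in capitals; all 3 were covered end to end by a peak in both lines. They are those of CDK4, a cell cycle kinase (chr12:57752311-57752560, minus strand, 3 matches, fold 5.25 in J76 and 5.94 in 293T), EIF4E, the cap-binding translation factor (chr4:98929134-98929383, minus strand, 2 matches, 6.77 and 5.39), and LDHA, lactate dehydrogenase A (chr11:18394313-18394562, plus strand, 2 matches, 5.89 and 5.66).
CDK4: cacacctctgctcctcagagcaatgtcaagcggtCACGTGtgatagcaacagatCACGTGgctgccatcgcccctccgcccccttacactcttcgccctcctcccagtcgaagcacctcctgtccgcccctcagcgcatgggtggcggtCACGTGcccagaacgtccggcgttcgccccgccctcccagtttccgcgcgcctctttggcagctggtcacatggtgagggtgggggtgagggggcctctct
EIF4E: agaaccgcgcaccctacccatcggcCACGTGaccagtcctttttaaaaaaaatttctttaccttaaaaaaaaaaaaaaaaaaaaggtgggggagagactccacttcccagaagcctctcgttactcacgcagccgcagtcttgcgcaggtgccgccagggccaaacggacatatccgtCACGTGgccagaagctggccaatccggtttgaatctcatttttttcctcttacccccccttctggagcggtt
LDHA: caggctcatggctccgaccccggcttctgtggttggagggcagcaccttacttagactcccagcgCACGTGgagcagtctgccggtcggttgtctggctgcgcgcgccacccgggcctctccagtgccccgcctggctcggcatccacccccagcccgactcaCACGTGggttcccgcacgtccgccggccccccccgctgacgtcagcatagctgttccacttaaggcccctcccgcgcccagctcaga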

How the data were processed

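The submitters' processing notes name Bowtie2 and MACS2, without versions or settings. Whether duplicates were removed or cut sites shifted for the transposase is not stated, and either could move summits and folds. The authors deposited 1 peak list per library in the narrowPeak layout. Its columns hold the authors' fold enrichment at the summit (a linear ratio), the −log10 of a p-value and of a q-value from the authors' caller, and an integer score that the authors deposited and that was not used. No source used here names the build; unplaced contigs carry GRCh38 names, and positions are given on that ground. Genes came from RefSeq, GRCh38.p14, whose table has no strand; starts came from its promoter table where it held the gene (15813 of 19974 protein-coding genes), and either end was used otherwise, for MYC and BOP1 among others.

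Peaks were counted with Python 3.11.15, numpy 2.4.6 and pandas 2.3.3, and overlap code was tested on simulated lists. Shares carry 95% Wilson intervals (scipy 1.17.1). The weakest peak listed had a −log10 q of 1.32 in J76, and of 1.37 in 293T. Results were recomputed with peaks of −log10 q 5 or more, or 10 or more, and with equal numbers of peaks (58730), a reciprocal overlap of 50%, summits within 250 bp, limits of 1 Mb around MYC, gaps of 5 or 25 kb, and windows of 500 bp or 2.5 kb. Stretches, segments, 300 kb tiles and the use of either gene end were added after seeing the data. The region, the members and the gene lists were chosen with earlier results of these data known. Peaks were named by rule: all within 50 kb of MYC; per line, the 10 unshared and 5 shared peaks of highest −log10 q, the 5 runs with most peaks and the 3 fullest 100 kb bins; and list members with a peak in 1 line only plus up to 4 in both lines by highest fold. Other peaks and genes named were chosen after their values were seen. One gene that the rule names is not reported here. Peaks on chromosome Y or unplaced contigs were not counted.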

Additional observations from a re-analysis of the deposited data

How the results depend on the processing

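Of 110 values recomputed under 11 alternative settings, 62 stayed within 1.5 times the count, or within the 95% interval of the share or median, and 48 moved. At a −log10 q of at least 5, dense runs numbered 3 in J76 and 10 in 293T, PVT1 peaks 2 and 8, 293T peaks in ASAP1 12 and in CCDC26 1, 293T-only peaks 7 from 50 to 500 kb and 28 over 1000 kb downstream, and the 293T median fold was 4.80. With −log10 q 10 as the floor, the region held 26 J76 and 47 293T peaks with median folds of 6.36 and 5.42, and 31.9% of the 293T peaks were shared. Runs then numbered 1 in J76 and 5 in 293T, PVT1 peaks 1 and 3, 293T peaks in ASAP1 7, CYRIB 7 and CCDC26 1, and 293T peaks within 50 kb of MYC 4. Unshared peaks from 50 to 500 kb downstream were 0 in J76 and 2 in 293T, those over 1000 kb 10 and 16, and list genes with a start peak in J76 only 2. With lists of equal length, 293T had 75 peaks, a median fold of 5.09, 33.3% shared, 9 runs, 8 peaks in PVT1, 10 in ASAP1 and 1 in CCDC26, with 7 unshared from 50 to 500 kb and 23 over 1000 kb downstream; the J76 share of all peaks was 44.4%, against 50% over autosomes and chromosome X by construction. A reciprocal overlap of 50% lowered sharing to 33.3% in J76 and 16.8% in 293T, with 5 J76-only peaks from 50 to 500 kb downstream. Shared percentages of the whole lists are not given for these alternative settings, so sharing in the region has no background at them. Within 1 Mb of MYC lay 20 J76 and 47 293T peaks. A gap of 5 kb left 1 run in J76 and 3 in 293T. List genes with a peak in a single line numbered 3 in J76 and 1 in 293T with windows of 2.5 kb, and 2 in J76 and 1 in 293T with either gene end, an alternative chosen after seeing the data, in place of 1 and 2. The J76-only stretch of 5 peaks held 4 at a −log10 q of at least 5, 4 at 10 and 5 with equal lists, while the 14-peak 293T stretch in PVT1 held 6 at a −log10 q of at least 5 and with equal lists, and at 10 it became 5 peaks from 127851487 to 128859486, reaching far past PVT1. The share of 293T-only stretches of the genome as long was 6.59% at 5, 7.24% at 10 and 4.21% with equal lists, in place of 1.27%; for the nearer J76-only stretch it was 5.83%, 4.35% and 5.42%, in place of 3.28%. The cause of these shifts was not tested beyond the removal of weak peaks that the stricter settings make by construction. Depth is unknown, so weak peaks limit the comparison. No paired analysis was possible because each line had 1 library.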
